A study of Glycine max with 12 samples.

Results

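Rubisco, the enzyme that fixes carbon dioxide in photosynthesis, is built from large subunits encoded in the chloroplast and small subunits encoded by nuclear RBCS genes. Rubisco activase is a nuclear-encoded AAA+ ATPase of the chloroplast that frees the active sites of Rubisco from tightly bound sugar phosphates. Transcripts of both kinds are abundant in illuminated leaves and other green tissue. The 6 soybean genes described here are the 2 RBCS genes Glyma.13G046200 and Glyma.19G046800 and the 4 Rubisco activase genes Glyma.02G249600, Glyma.14G067000, Glyma.11G221000 and Glyma.18G036400. They were chosen by gene ID out of 56044 IDs in the count tables, without use of a threshold on their values. The choice was made with earlier results of these data known. The count tables hold no gene names, so these family names rest on prior knowledge of the IDs. The RefSeq gene table (Glycine_max_v4.0) matched none of the IDs. It lists RBCS symbols on chromosomes 13 and 19 and activase symbols on chromosomes 2, 3, 11, 14 and 18. Further copies of either family, such as an activase gene on chromosome 3 or a possible RBCS gene beside Glyma.19G046800, are not among the 6, so family sums below are sums over these 2 and these 4 genes.

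Transcripts were counted in 12 RNA-seq libraries of field-grown soybean (Glycine max), each labelled as seed collected from 3 to 5 plants. The groups were the Gm20/Gm10 double mutant, edited in a gene of the major seed protein locus on chromosome 20 and in its paralog on chromosome 10, the Gm20 single mutant, edited on chromosome 20 alone, and the unedited cultivar Thorne (WT Thorne). Each genotype had 2 libraries labelled R5, the name of the stage at which seed filling begins, and 2 labelled V5, the name of a vegetative stage. Library totals were 26966329 to 34626177 counts at R5 and 20410270 to 21066989 counts at V5. The labels also call the edited material transgenic. They do not tell whether replicate libraries came from separate plots or plants and how many independent edited lines stand behind each mutant. The p-values therefore rest on the differences between these libraries only, and do not reach to other plots, plants or edited lines.

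The tissue label was checked against marker genes. The 10 IDs listed as seed storage globulins (5 glycinin and 5 beta-conglycinin IDs) had summed counts of 0 to 9 in the R5 libraries, and 6 of the 10 had 0 counts in all of them. The same IDs summed to 8096 to 238816 CPM (the count scaled by the library total) in the V5 libraries. Among the 6, Glyma.03G163700 had at most 1 count in any V5 library too, so its 0 counts at R5 tell nothing of tissue. The 2 IDs listed as vegetative storage proteins, which soybean leaves and pods accumulate, summed to 9154 to 32668 CPM at R5 and to 0.770 to 15.5 CPM at V5. The R5 libraries therefore lack the defining transcripts of filling seed and the V5 libraries hold them, although V5 names a vegetative stage. Below, "R5" and "V5" mean the libraries labelled so, and stage, tissue and sequencing depth cannot be told apart between them. The edited pair itself (Glyma.20G085100 and Glyma.10G134400, IDs from prior knowledge) summed to 0 to 10 counts per R5 library and 40 to 98 per V5 library, and a small edit need not change RNA level, so these counts do not check the genotype labels.

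Some libraries stood apart from their own group. At V5, the standard deviation of log2 CPM ratios over 10706 abundant genes was 1.08 to 1.14 between the single mutant V5 library 2 and each of the other 5, and 0.173 to 0.356 among those 5. Storage globulins made up 0.810% of the counts of that library, against 11.95% to 23.9% in the other V5 libraries. At R5, the double mutant library 1 and the single mutant library 2 differed by a standard deviation of 0.119 over 19657 genes, which is 1.45 times the sampling noise, while the other 14 pairs differed by 0.184 to 0.747. The 0.184 was also across genotypes, between the double mutant library 2 and Thorne library 1. Replicates of a genotype differed by 0.547 in double mutants, 0.544 in single mutants and 0.302 in Thorne.

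**Figure D1:**
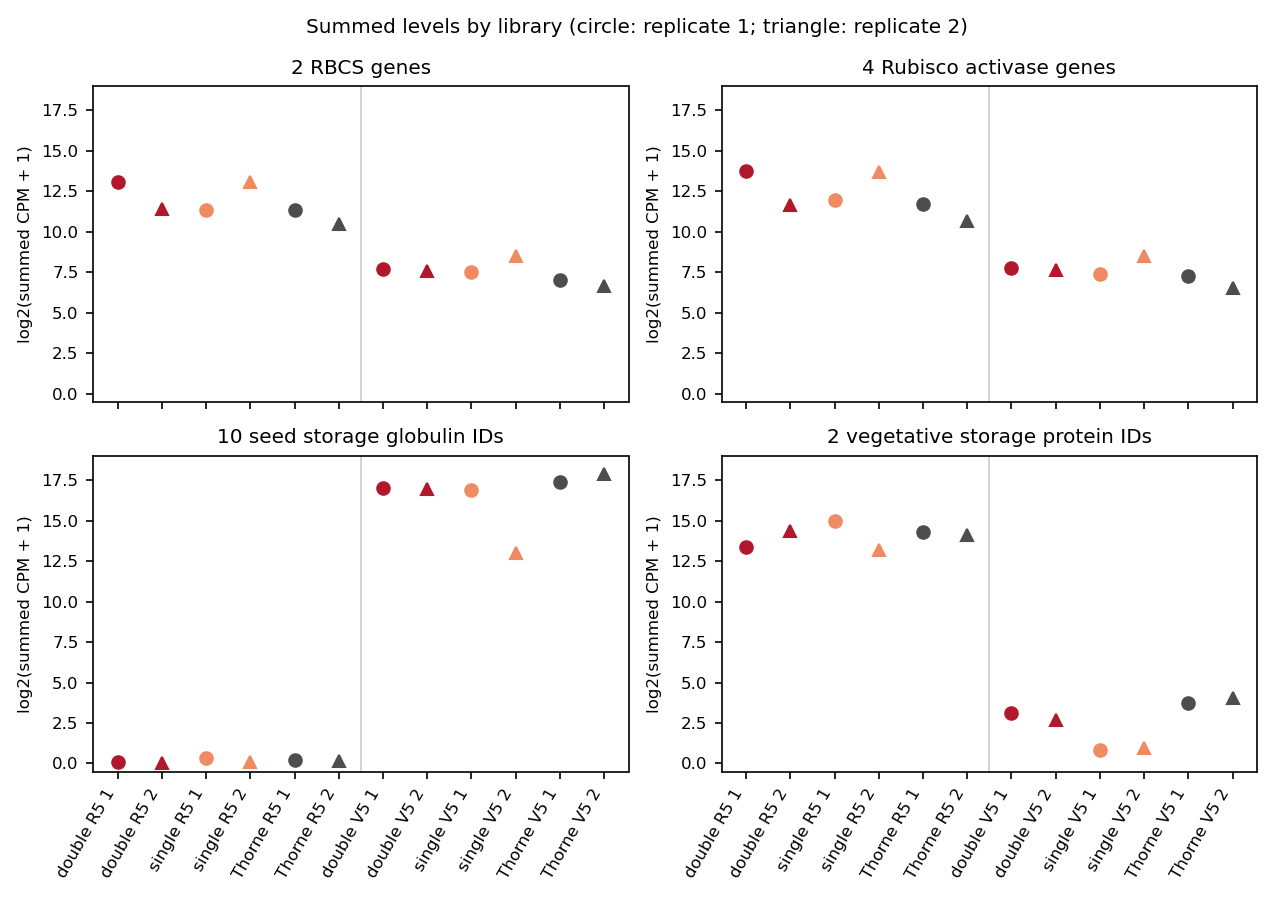
Summed levels, as log2(summed CPM + 1), of the 2 RBCS genes, the 4 activase genes, the 10 seed storage globulin IDs and the 2 vegetative storage protein IDs in each of the 12 libraries, with R5 libraries left of the grey line and V5 libraries right of it. Both families of interest and the vegetative storage IDs are high at R5, the storage globulins are high at V5, and the single mutant V5 library 2 has the lowest globulin level at V5 and the highest RBCS and activase levels there.

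The 6 genes together took 0.303% to 2.20% of all counts in the R5 libraries and 0.0190% to 0.0719% in the V5 libraries. Every member was higher at R5 in each genotype, by edgeR's quasi-likelihood test with Benjamini-Hochberg adjustment over all genes. In each genotype 6 of 6 members were called higher at R5. Among all 38559 genes tested, 21.1% were called higher at R5 in double mutants, 21.6% in single mutants and 20.9% in Thorne. The lowest R5 library lay above the highest V5 library for all 6 members in CPM, which held for 32.9% of all genes tested. The gap between those 2 libraries ran from 1.99-fold for Glyma.14G067000 to 93.4-fold for Glyma.11G221000. In bulk material fewer cells of a type and less RNA per cell cannot be told apart.

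The RBCS gene Glyma.13G046200 had 6193 and 1849 CPM in double mutant R5 libraries 1 and 2, 1740 and 6043 CPM in single mutant R5 libraries 1 and 2, and 1727 and 962 CPM in Thorne R5 libraries 1 and 2. At V5 it had 132 and 113 CPM in double mutants, 110 and 218 CPM in single mutants, and 87.5 and 64.0 CPM in Thorne. At both stages Thorne library 2 was the lowest library, and at R5 the closely matched mutant pair was more than 3-fold above every other library. On the log2 scale R5 exceeded V5 by 4.70 (SE 0.81; edgeR adjusted p = 0.0058) in double mutants, by 4.39 (SE 0.81; adjusted p = 0.00686) in single mutants and by 3.36 (SE 0.81; adjusted p = 0.018) in Thorne. In the double mutant this difference was 3.49 without R5 library 1 and 5.36 without R5 library 2, and in the single mutant it was 5.10 without R5 library 1 and 3.05 without R5 library 2. In Thorne it ran from 2.87 to 3.74 with 1 library left out at a time.

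The second RBCS gene, Glyma.19G046800, had 2253 and 862 CPM in the double mutant R5 libraries, 821 and 2500 CPM in the single mutant R5 libraries and 855 and 461 CPM in the Thorne R5 libraries. At V5 it had 77.9 and 79.4 CPM in double mutants, 69.1 and 147 CPM in single mutants, and 40.1 and 35.7 CPM in Thorne. The libraries that were high or low were those of the first gene. On the log2 scale R5 exceeded V5 by 3.97 (SE 0.69; edgeR adjusted p = 0.00535) in double mutants, by 3.77 (SE 0.69; adjusted p = 0.00609) in single mutants and by 3.32 (SE 0.69; adjusted p = 0.0101) in Thorne. With 1 library left out at a time this difference ran from 3.03 to 4.54 in double mutants, 2.58 to 4.43 in single mutants and 2.79 to 3.71 in Thorne.

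The activase genes fell into 2 pairs by their level at V5, a grouping made after the values were seen. Glyma.02G249600 and Glyma.14G067000 stayed at 40.9 to 170 CPM in the V5 libraries. Glyma.11G221000 was at 1.27 to 6.51 CPM there, and Glyma.18G036400 was at 0.0487 to 0.965 CPM in 5 of the V5 libraries and at 22.3 CPM in the single mutant library 2.

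Glyma.02G249600 had 1545 and 713 CPM in the double mutant R5 libraries, 659 and 1542 CPM in the single mutant R5 libraries and 674 and 457 CPM in the Thorne R5 libraries. At V5 it had 106 and 93.5 CPM in double mutants, 88.5 and 158 CPM in single mutants, and 69.8 and 40.9 CPM in Thorne. R5 and V5 libraries did not overlap. On the log2 scale R5 exceeded V5 by 3.15 (SE 0.58; edgeR adjusted p = 0.00573) in double mutants, by 2.95 (SE 0.58; adjusted p = 0.00686) in single mutants and by 2.57 (SE 0.58; adjusted p = 0.0122) in Thorne. With 1 library left out at a time this difference ran from 2.41 to 3.65 in double mutants, 2.06 to 3.53 in single mutants and 2.25 to 2.88 in Thorne.

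Glyma.14G067000 had the narrowest range of the 6 members at R5, with 876 and 460 CPM in double mutants, 561 and 855 CPM in single mutants and 510 and 337 CPM in Thorne. At V5 it had 101 and 99.0 CPM in double mutants, 75.8 and 170 CPM in single mutants, and 79.3 and 48.3 CPM in Thorne. The stage gap was the smallest among the members. On the log2 scale R5 exceeded V5 by 2.39 (SE 0.49; edgeR adjusted p = 0.00762) in double mutants, by 2.33 (SE 0.49; adjusted p = 0.00791) in single mutants and by 1.95 (SE 0.49; adjusted p = 0.0165) in Thorne. With 1 library left out at a time this difference ran from 1.78 to 2.82 in double mutants, 1.85 to 2.71 in single mutants and 1.61 to 2.24 in Thorne.

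Glyma.11G221000 had 7555 and 1538 CPM in the double mutant R5 libraries, 1922 and 7376 CPM in the single mutant R5 libraries and 1560 and 609 CPM in the Thorne R5 libraries. At V5 it had 6.51 and 4.31 CPM in double mutants, 4.09 and 4.41 CPM in single mutants, and 2.55 and 1.27 CPM in Thorne, from 26 to 135 counts per library. Unlike the 5 other members, it was not highest at V5 in the single mutant library 2. On the log2 scale R5 exceeded V5 by 9.38 (SE 0.96; edgeR adjusted p = 0.00155) in double mutants, by 9.85 (SE 0.97; adjusted p = 0.00129) in single mutants and by 8.38 (SE 0.99; adjusted p = 0.00215) in Thorne. With R5 library 1 left out it was 7.72 in double mutants, 10.58 in single mutants and 7.53 in Thorne. With R5 library 2 left out it was 10.14 in the double mutant and 8.39 in the single mutant.

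Glyma.18G036400 had 3557 and 541 CPM in the double mutant R5 libraries, 761 and 3384 CPM in the single mutant R5 libraries and 535 and 204 CPM in the Thorne R5 libraries. At V5 it had 0.965 and 0.814 CPM in double mutants (20 and 17 counts), 0.577 and 22.3 CPM in single mutants (12 and 469 counts), and 0.147 and 0.0487 CPM in Thorne (3 and 1 counts). The single mutant V5 library 2 was 38.6 times its own replicate (3 of 6 members were at least 2-fold higher in that library, beside 32.7% of all genes), and Glyma.18G036400 was the member with the widest spread at either stage. On the log2 scale R5 exceeded V5 by 10.84 (SE 1.45; edgeR adjusted p = 0.00467) in double mutants, by 7.49 (SE 1.36; adjusted p = 0.0113) in single mutants and by 11.05 (SE 2.13; adjusted p = 0.00574) in Thorne. Since Thorne had only 4 counts at V5, the pooled CPM ratio there, 3749, has a 95% counting interval of 1464 to 13762 (exact binomial). Leaving out R5 library 1 gave 8.82 in double mutants, 8.27 in single mutants and 10.18 in Thorne, and leaving out R5 library 2 gave 11.65 in the double mutant and 5.87 in the single mutant. Leaving out V5 library 1 gave 6.58 in the single mutant and 11.90 in Thorne, and leaving out V5 library 2 gave 11.34 in the single mutant.

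**Figure D2:**
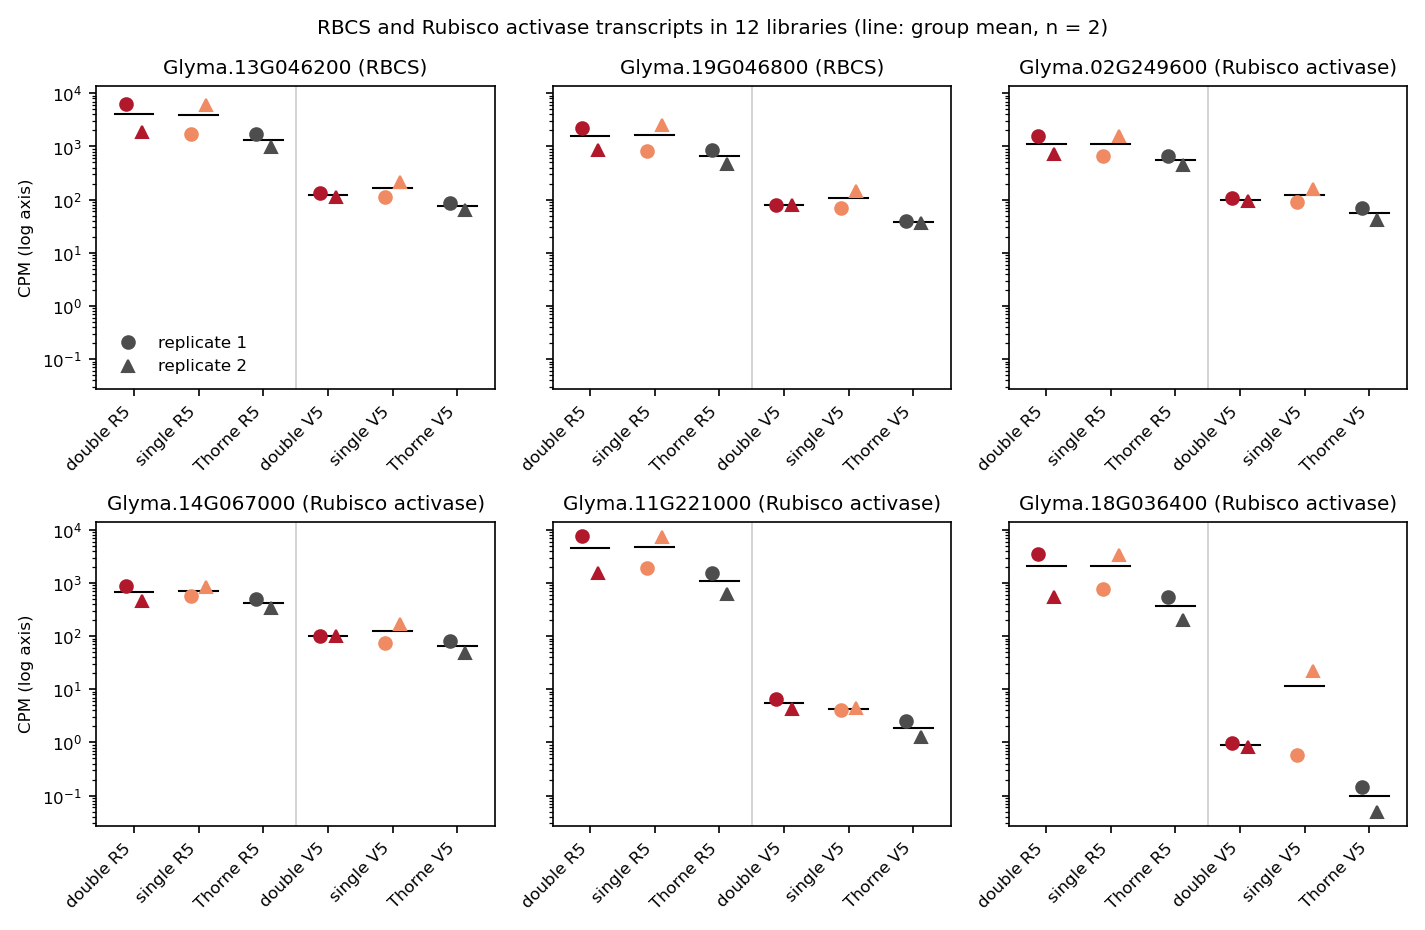
CPM on a log axis of the 6 genes in the 12 libraries, by genotype and stage label, with circles for replicate 1, triangles for replicate 2 and a line at the group mean (n = 2). R5 and V5 libraries do not overlap for any of the 6 genes, and 2 R5 libraries, the double mutant library 1 and the single mutant library 2, are the highest for each gene.

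The size of the stage difference depended on scaling. With TMM scaling the median log2 fold change of the members between R5 and V5 was 4.33 in double mutants, 4.08 in single mutants and 3.34 in Thorne, beside medians over all genes of 0.11, -0.03 and 0.14. In CPM without TMM the members' medians were 4.67, 4.25 and 4.13, beside medians over all genes of 0.48, 0.27 and 0.94. The 6 members kept their direction under both scalings. With TMM scaling the lowest R5 library exceeded the highest V5 library by 1.78-fold for Glyma.14G067000 and 64.8-fold for Glyma.11G221000, beside 1.99-fold and 93.4-fold in CPM. The number of calls varied with the libraries, for the members and for all genes. The fits below that leave out 1 library left a compared group with a single library. Their calls rest on the spread within the other groups and do not tell which library is typical. Without Thorne R5 library 1, 2 of 6 members were called higher in Thorne (Glyma.11G221000 and Glyma.18G036400), beside 11.4% of all genes. Without Thorne V5 library 1 or library 2, 1 of 6 was called higher in Thorne (Glyma.11G221000), beside 9.15% and 8.44% of all genes. Without the double mutant V5 library 1 or library 2, 1 of 6 was called higher in the double mutant (Glyma.11G221000), beside 8.55% and 8.64% of all genes. A fit of the 4 single mutant libraries alone called 0 of 6 members and 1.6% of all genes higher.

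The makeup of each family's counts was then compared, as shares of counts within a library. Counts of different genes depend on transcript length, so a share is read only across libraries. Glyma.13G046200 supplied 66.9% to 73.3% of the summed counts of the 2 RBCS genes at R5 and 58.7% to 68.6% at V5. The mean share was 6.54 percentage points higher at R5 (exact permutation test within genotype, two-sided, n = 6 libraries per stage label, p = 0.0278, adjusted p = 0.0278 over the 6 values of this family), and the ranges overlapped.

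The makeup of the activase counts differed between the stage labels without overlap for any of the 4 genes. Glyma.11G221000 supplied 37.9% to 56.1% of the summed counts of the 4 activase genes at R5 and 1.25% to 3.03% at V5, a difference of 46.99 percentage points. Glyma.18G036400 supplied 12.7% to 26.3% at R5 and 0.0538% to 6.29% at V5, a difference of 18.3 points. The shares of Glyma.02G249600 (11.4% to 28.4% at R5, 44.6% to 52.4% at V5) and of Glyma.14G067000 (6.47% to 21.0% at R5, 44.9% to 53.4% at V5) were lower at R5, by differences of -28.98 and -36.3 points. For each of the 4 genes the exact permutation test gave p = 0.00926 (n = 6 libraries per stage label), the smallest that this design allows, and an adjusted p of 0.0139. The 4 shares sum to 100 in a library and are not independent.

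Within the R5 libraries the makeup also varied. Glyma.11G221000 and Glyma.18G036400 together held 82.1% and 63.9% of activase counts in the double mutant libraries 1 and 2, 68.7% and 81.8% in the single mutant libraries 1 and 2, and 63.9% and 50.6% in the Thorne libraries. The share was highest in the 2 libraries with the most activase counts and lowest in Thorne library 2, which had the lowest summed activase CPM. The pair is itself a large part of that sum, so share and sum are not independent, and no relation between them was tested. At V5 the same pair held 3.48% and 2.59% in double mutants, 2.76% and 7.53% in single mutants and 1.77% and 1.45% in Thorne. Since the pair was grouped by its V5 level after the values were seen, its low V5 share is not a separate result. The ratio of Glyma.18G036400 to Glyma.11G221000 counts was 0.335 to 0.471 at R5. At V5 it was 0.0385 to 0.189 in the libraries other than the single mutant library 2, where it was 5.04.

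**Figure D3:**
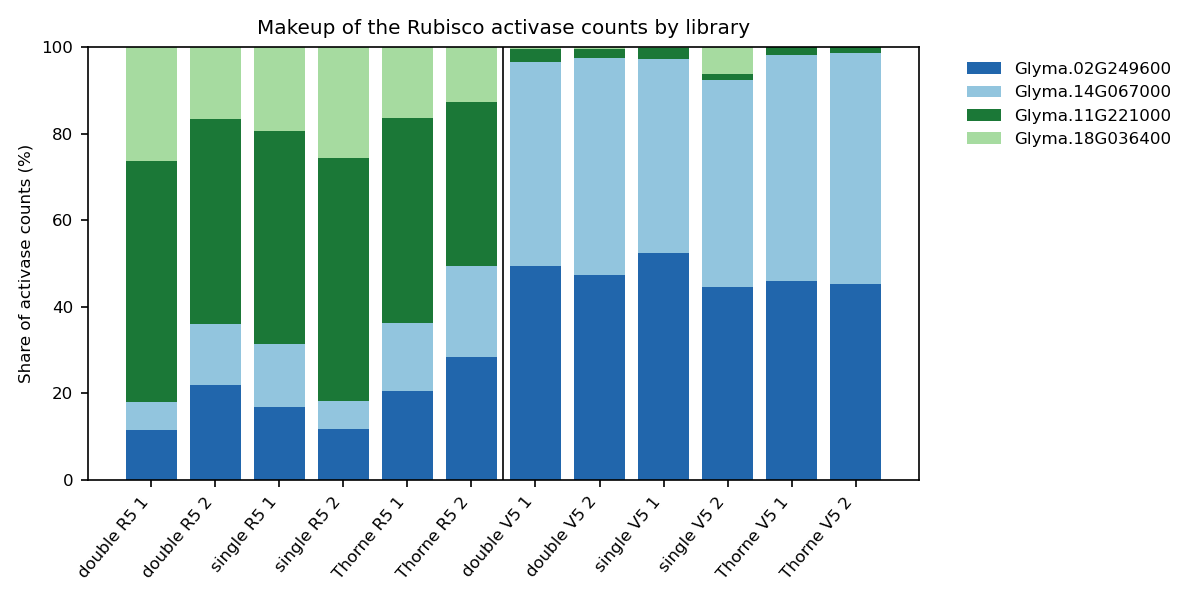
Share (%) of the summed activase counts held by each of the 4 activase genes in each library, R5 libraries left of the line and V5 libraries right of it. Glyma.11G221000 and Glyma.18G036400, paired by their low V5 level after the values were seen, hold 50.6% to 82.1% at R5 and 1.45% to 7.53% at V5.

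The balance between the families was also compared. The log2 ratio of the summed counts of the 4 activase genes to those of the 2 RBCS genes was 0.17 to 0.68 at R5 and -0.14 to 0.25 at V5. The mean was higher at R5 by 0.44 (exact permutation test within genotype, n = 6 libraries per stage label, p = 0.0185, adjusted p = 0.0222), with overlap between the stage labels.

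The question of the genotype comparisons was whether transcript levels differed between the edited lines and Thorne at a given stage. At R5 both mutants had higher means than Thorne for all 6 members, and none of the differences passed the test. Glyma.13G046200 averaged 4021 ± 3072 CPM in double mutants, 3892 ± 3043 CPM in single mutants and 1345 ± 540 CPM in Thorne (SD, n = 2 each). Glyma.18G036400 averaged 2049 ± 2133 CPM in double mutants, 2073 ± 1855 CPM in single mutants and 370 ± 234 CPM in Thorne (SD, n = 2 each). For both genes the SD within each mutant was above the difference between mutant and Thorne means. The double mutant had log2 fold changes of 0.79 (SE 0.53) for Glyma.14G067000 to 2.63 (SE 1.19) for Glyma.18G036400 against Thorne, with unadjusted p of 0.0847 to 0.19 and an edgeR adjusted p of 0.779 for each. The single mutant had log2 fold changes of 0.83 (SE 0.53) for Glyma.14G067000 to 2.62 (SE 1.19) for Glyma.18G036400, with unadjusted p of 0.0856 to 0.173 and edgeR adjusted p of 0.585 to 0.59. Both comparisons share the Thorne libraries.

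Over all 37058 genes tested at R5, edgeR called 0 in each mutant against Thorne, which is 0.0% in each, with 1089 and 2035 genes at an unadjusted p under 0.05 (2.94% in double mutants and 5.49% in single mutants). DESeq2 called 58 and 73 genes (0.157% and 0.197%), with 0 members in either. The median log2 fold change of the members was 1.55 in each mutant, beside -0.02 and 0.00 over all genes. Both mutant libraries lay above both Thorne libraries in CPM for 4 of 6 members in the double mutant (not Glyma.14G067000 or Glyma.11G221000), beside 14.0% of all genes, and for 4 of 6 in the single mutant (not Glyma.19G046800 or Glyma.02G249600), beside 19.3%.

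One library in each mutant group carried most of those means. In the double mutant R5 group, library 1 exceeded library 2 by 1.90-fold for Glyma.14G067000 to 6.58-fold for Glyma.18G036400, and 5 of 6 members were at least 2-fold higher in it, beside 8.95% of all genes. In the single mutant R5 group, library 2 exceeded library 1 by 1.52-fold for Glyma.14G067000 to 4.45-fold for Glyma.18G036400, and 5 of 6 members were at least 2-fold higher, beside 6.66% of all genes. The Thorne libraries differed by 1.48-fold for Glyma.02G249600 to 2.63-fold for Glyma.18G036400, with 2 of 6 members at least 2-fold higher in library 1, beside 3.17% of all genes. In both mutants the vegetative storage IDs went the other way, with 1.05% and 2.06% of all counts in the double mutant libraries 1 and 2, 3.27% and 0.915% in the single mutant libraries 1 and 2, and 2.02% and 1.81% in Thorne, and their part in the result was not tested. The 6 log2 fold changes of the double mutant against Thorne were 0.16 to 0.59 without its library 1 and 1.24 to 3.45 without its library 2. Those of the single mutant were 1.18 to 3.36 without its library 1 and 0.17 to 0.98 without its library 2. Leaving out Thorne library 1 gave 1.12 to 3.49 in double mutants and 1.16 to 3.48 in single mutants, and leaving out Thorne library 2 gave 0.51 to 2.09 in double mutants and 0.55 to 2.07 in single mutants. Each of these fits left 1 group with a single library, so only the size of the log2 fold changes is read. With neither library, where the lone library of each mutant is taken to vary as the Thorne pair does, they were 0.17 to 0.59 in double mutants and 0.19 to 1.01 in single mutants.

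The means of the mutants were close to each other at R5. The log2 fold changes of the double over the single mutant lay between -0.07 and 0.07, with SE of 0.53 to 1.19 and an edgeR adjusted p of 1 for each member. EdgeR called 0.0% of all genes in this comparison (0 of 37058, with 99, or 0.267%, at an unadjusted p under 0.05) and DESeq2 called 0. With SE of this size the values do not show that the mutants had like levels. Without the double mutant library 1 they were as low as -2.02, and without the single mutant library 2 as high as 1.64, both for Glyma.18G036400.

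At V5 the mutant means were again above Thorne for all 6 members, and none of the differences passed the test. Glyma.19G046800 averaged 78.6 ± 1.03 CPM in double mutants, 108 ± 55.2 CPM in single mutants and 37.9 ± 3.15 CPM in Thorne (SD, n = 2 each). Its log2 fold change against Thorne was 0.74 (SE 0.30) in double mutants and 1.02 (SE 0.30) in single mutants, at an unadjusted p of 0.0534 in the first and 0.018 in the second (edgeR adjusted p = 1 and 0.649). Glyma.11G221000 averaged 5.41 ± 1.56 CPM in double mutants, 4.25 ± 0.23 CPM in single mutants and 1.91 ± 0.906 CPM in Thorne (SD, n = 2 each), and differed from Thorne on the log2 scale by 1.22 (SE 0.42) and 0.76 (SE 0.43) at the same adjusted p. The other members had log2 fold changes of 0.36 to 2.83 in double mutants and 0.46 to 6.17 in single mutants. The 2.83 and the 6.17 belong to Glyma.18G036400, which had 3 and 1 counts in Thorne, so its fitted fold depends on the prior count.

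EdgeR called 0 of 33599 genes at V5 in either mutant against Thorne, 0.0% in each, with 517 and 2022 at an unadjusted p under 0.05 (1.54% and 6.02%), among them 1 member in double mutants (Glyma.11G221000) and 2 in single mutants (Glyma.19G046800 and Glyma.18G036400). The median log2 fold change of the members was 0.65 in double mutants and 0.73 in single mutants, beside 0.00 and 0.03 over all genes. In CPM both mutant libraries lay above both Thorne libraries for 6 of 6 members in double mutants and for 5 of 6 in single mutants (not Glyma.14G067000), where 60.1% and 36.5% of all genes did so. Storage globulins took 13.1% and 12.6% of counts in the double mutant V5 libraries, 11.95% and 0.810% in the single mutant and 16.9% and 23.9% in Thorne, and their part in these CPM differences was not tested. DESeq2 called 11 genes in the double mutant (0.0327%), with 0 members, and 167 in the single mutant (0.497%), among them Glyma.18G036400 with an adjusted p of 0.0086. Of the 481 counts of this gene in the single mutant at V5, 469 came from library 2. Without library 2 the log2 fold change of Glyma.18G036400 was 2.32, and those of all 6 members were 0.08 to 2.32. Leaving out Thorne library 1 gave 0.50 to 3.64 in double mutants and 0.69 to 6.94 in single mutants. Leaving out Thorne library 2 gave 0.14 to 2.36 and 0.21 to 5.66. Each of these fits left 1 group with a single library. Without the single mutant library 1, the single mutant being the outlying library alone, edgeR called 5 members against Thorne, all but Glyma.11G221000, and 21539 of all 35927 genes.

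Between the mutants at V5, edgeR called 0 members and 0.0% of all genes (0 of 33599, with 1351, or 4.02%, at an unadjusted p under 0.05), and DESeq2 called 113 genes (0.336%) with 0 members. The log2 fold changes of the double over the single mutant were -0.28 to 0.46 for 5 members and -3.34 (SE 1.36) for Glyma.18G036400, with edgeR adjusted p of 0.669 to 0.892. Without the single mutant V5 library 2 all 6 were between 0.03 and 0.50. Without library 1, which leaves the outlying library alone, they were -4.24 to 0.69. Both fits left the single mutant with a single library, so only the size of the log2 fold changes is read.

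**Figure D4:**
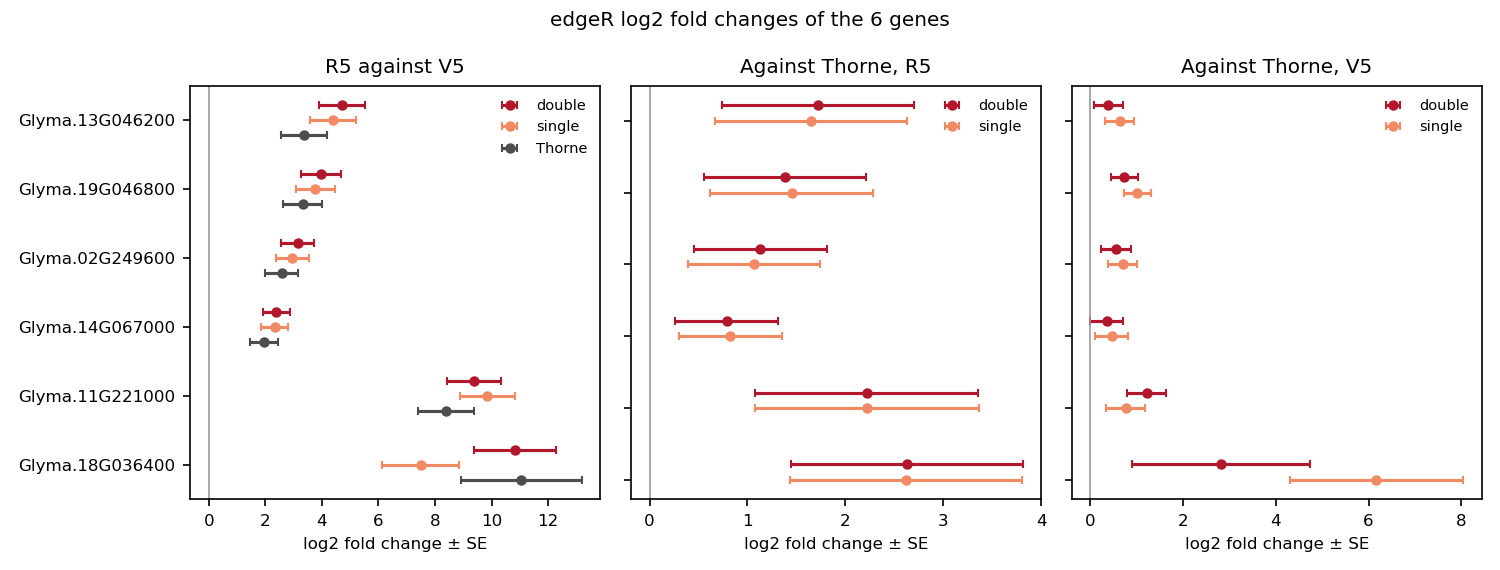
EdgeR log2 fold changes (points) with standard errors (bars) of the 6 genes for R5 against V5 in each genotype (left), and for each mutant against Thorne at R5 (middle) and at V5 (right). All points lie above 0, the 18 values on the left passed the test, and the 24 values in the middle and right panels did not.

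Whether a mutant's difference from Thorne depended on the stage label was tested on all 12 libraries. This interaction, on the log2 scale, was -0.22 (SE 2.58) for Glyma.18G036400 to 1.34 (SE 1.14) for Glyma.13G046200 in the double mutant, with an edgeR adjusted p of 1 for each member. In the single mutant it was -3.56 (SE 2.53) for Glyma.18G036400 to 1.48 (SE 1.38) for Glyma.11G221000, with edgeR adjusted p of 0.729 to 0.928. EdgeR called 0 of 38559 genes in each (0.0%), with 982 and 2645 at an unadjusted p under 0.05 (2.55% and 6.86%), and DESeq2 called 16 and 134 (0.0415% and 0.348%), with 0 members. Without the closely matched R5 pair, which left each mutant with a single R5 library, 4 of the 6 values changed sign in each mutant.

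Other genes followed the 2 families closely over the libraries. Over all 12 libraries, whose log2(CPM + 1) values separate by stage label, Glyma.19G106800 had the highest Pearson r with the RBCS sum (0.999) and with the activase sum (0.997) among 38553 genes. It had 444 to 1614 CPM at R5 and 42.6 to 114 CPM at V5. Within the 6 R5 libraries alone Glyma.03G114600 was closest to the RBCS sum (r = 0.9996, 226 to 694 CPM at R5) and Glyma.18G001800 to the activase sum (r = 0.9999, 38.7 to 140 CPM at R5). These are descriptions over few libraries that share depth and stage, and at R5 both family sums are far higher in 2 libraries than in the rest. There 453 of 38160 genes had an r over 0.99 with the RBCS sum and 445 with the activase sum. Over all 12 libraries 147 and 125 of 38553 genes did so.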

How the data were processed

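The values are raw read counts for 56044 gene IDs, 1 table per library, as the authors deposited them. The submitters' processing notes name Bowtie, HISAT2 and HTSeq. Not given in the sources used here are versions, genome build, strand setting and how multiply matching reads were handled. Reads of near-identical copies, such as the members of these 2 families, may have been split or dropped, so the division of counts between copies is uncertain.

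Groups came from the sample titles. Tests on the counts used quasi-likelihood fits in edgeR 4.0.16 under R 4.3.3 (TMM, filterByExpr with minimum count 10 and minimum total 15, adjusted p under 0.05 over all genes tested). Genotypes were compared on the 6 libraries of a stage label and stages on all 12. All 6 members passed the filter in each fit. CPM are counts over the library total, without TMM. Shares were tested by exact permutation of stage labels within genotype. Intervals are at 95% and cover counting error only. The fitting code was tested on simulated data. Alternatives were RLE size factors, DESeq2 1.42.0, limma 3.58.1 (voom with quality weights), no filter, the replicate number as a block, other library sets and each library left out.

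The members, markers and lists were chosen with earlier results of these data known. All 6 members are named in each comparison. The rule for genes of like pattern took 3 per family and library set by Pearson r, of which the first is printed. The lists of Calvin cycle, Rubisco assembly, photorespiration and light-harvesting genes were defined by product description, and the marker lists by IDs as well. With 0 of 56044 IDs matched to the 59048 genes of the RefSeq table, the pathway lists could not be filled and are not used here.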

Additional observations from a re-analysis of the deposited data

How the results depend on the processing

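Leaving out 1 library at a time changed the number of members called in some comparisons. These were R5 against V5 in double mutants and in Thorne, single mutants against Thorne at V5, and double against single mutants at V5. The number of calls over all genes changed in each of them too. Each change in members called came from a fit that left a compared group with a single library, so these calls rest on the spread within the other groups. Calls of the single mutant stage difference fell to 3 members with limma (Glyma.02G249600, Glyma.14G067000 and Glyma.18G036400 lost), beside 2.15% of all genes called higher. A fit of its 4 libraries only called 0 members, beside 1.6% of all genes called higher. The main fit called 21.6% of all genes higher. DESeq2 called 1 member for single mutants against Thorne at V5, beside 0.497% of all genes. With the median in place of the mean the RBCS share of Glyma.13G046200 differed by 5.95 points (exact permutation, adjusted p = 0.0556).

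Signs changed, with no member called, in these cases (log2 scale). For double against single mutants at R5 the replicate block gave -0.12 for Glyma.13G046200, -0.0019 for Glyma.02G249600 and -0.58 for Glyma.18G036400. Limma gave -0.25 for Glyma.18G036400, and leaving out the closely matched pair gave 0.15 for Glyma.19G046800 and -0.41 for Glyma.18G036400. The interaction without that pair, in double mutants, was -0.30 for Glyma.19G046800, -0.17 for Glyma.02G249600, -0.19 for Glyma.14G067000 and -0.67 for Glyma.11G221000. In single mutants it was -0.24 for Glyma.13G046200, -0.68 for Glyma.19G046800, -0.46 for Glyma.02G249600 and -0.035 for Glyma.14G067000.

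Leaving out 1 library at a time, double over single mutants at R5 ran from -1.15 to 1.41 for Glyma.13G046200, -1.02 to 1.12 for Glyma.19G046800, -0.69 to 0.97 for Glyma.02G249600, -0.66 to 0.44 for Glyma.14G067000, -1.67 to 1.45 for Glyma.11G221000 and -2.02 to 1.64 for Glyma.18G036400. At V5 it ran from -0.44 to 0.035 for Glyma.13G046200, -0.51 to 0.070 for Glyma.19G046800, -0.26 to 0.057 for Glyma.02G249600, -0.36 to 0.28 for Glyma.14G067000 and -4.24 to 0.50 for Glyma.18G036400. Fits without a library of either mutant left that mutant with a single library at that stage, so only the size of the values is read. The double mutant interaction ran from -0.29 to 1.21 for Glyma.19G046800, -0.17 to 1.07 for Glyma.02G249600, -0.18 to 0.87 for Glyma.14G067000, -0.66 to 1.86 for Glyma.11G221000 and -2.24 to 0.66 for Glyma.18G036400. The single mutant interaction ran from -0.31 to 1.73 for Glyma.13G046200, -0.74 to 1.11 for Glyma.19G046800, -0.52 to 0.95 for Glyma.02G249600, -0.097 to 0.76 for Glyma.14G067000 and -5.18 to 0.29 for Glyma.18G036400.

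Without the close R5 pair and the single mutant V5 library 2, a set picked with the data in view, the double mutant keeps 1 R5 library and the single mutant 1 library at each stage, which are taken to vary like the other groups. EdgeR then called 6 of 6 members higher at R5 in each genotype, beside 29.5% of all genes in double mutants, 25.5% in single mutants and 33.7% in Thorne. Over all genes, calls between R5 and V5 were 14421 in double mutants (7523 without the close pair, 21967 also without the single mutant V5 library 2, 6611 to 21646 with 1 library left out). They were 16168 in single mutants (2810 with limma, 7578 without the close pair, 1040 in its own libraries only, 8692 to 23469) and 14558 in Thorne (25309 with limma, 23306 in its own libraries only, 25343 without the 3 libraries, 7017 to 21812). DESeq2 calls in the other comparisons stand beside them above. The cause was not tested. Replicate numbers showed no pairing common to all groups: deviations of same-numbered libraries correlated by -0.72 to 0.55 over 5029 genes. The -0.72 was between the double and single mutant R5 groups and the 0.55 between the Thorne and double mutant R5 groups. A pairing within some groups was not tested. With the replicate block edgeR called 12656 genes in double mutants, 13995 in single mutants and 12761 in Thorne between R5 and V5, 0 in the other comparisons, and the same number of members as without it. Depth limits Glyma.18G036400 most, at 1 to 20 counts in 5 of the V5 libraries.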
